A study of Mus musculus with 26 samples.

Results

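The 10 genes described here are Vwf and 9 other genes of platelet-primed haematopoietic stem cells (HSCs), out of 23416 genes in the deposited table. They are Gp9, Gp5, Gp1bb, Itga2b, Itgb3, Selp, Pf4, Clu and Cd9, and all 10 were among the 12116 genes that passed the filter on low values. The list was assembled around Vwf, which was chosen by its RPKM level because it was lower in the libraries labelled with Ezh2 loss, so its differences with Ezh2 loss are given as a description without a test. The question is whether the other 9 follow it. The 26 libraries were made by Smart-Seq2, a full-length RNA amplification method for few cells, from HSCs sorted out of mouse bone marrow. Levels are in RPKM, the reads of a gene scaled to its length in kilobases and to the read total of its library.

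The groups, by their genotype labels, were JAK2V617F together with Ezh2 loss (called the double mutant here, n = 7 libraries), Ezh2 loss alone (n = 7), JAK2V617F alone (n = 7) and CTR (control, n = 5). The label of the double mutant spells the mutation JAK2V17F, which was read as JAK2V617F. No allele or agent shared by all 4 groups is named in the labels. The promoter or Cre line behind each allele, the age, sex and strain of the mice, the number of cells per library and any pooling of animals are not stated in any source used here. The labels do not say whether libraries of a group are separate mice, and each p-value therefore reflects variation among these libraries, which may be technical.

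JAK2V617F is an activating mutation of the kinase JAK2, which passes on signals of cytokine receptors and drives myeloproliferative neoplasms. Ezh2 is the catalytic subunit of Polycomb repressive complex 2 and methylates lysine 27 of histone H3, a mark of repressed genes. Some HSCs already carry RNAs of the megakaryocyte and platelet programme, and mouse HSCs that express Vwf are known to be biased towards platelet production. Vwf encodes von Willebrand factor, the adhesive glycoprotein that tethers platelets to damaged vessel walls through the GPIb-IX-V receptor complex.

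The libraries held 7.82 to 29.2 M reads (M for mega), as recovered from the steps of the RPKM values. The totals were 17.3 to 29.2 M in the double mutant, 7.82 to 24.9 M in Ezh2 loss, 8.45 to 18.0 M in JAK2V617F and 12.2 to 20.3 M in control. Sample titles carry the replicate number either before or after the group code, and this title style called more genes than any genotype term, so it was kept as a covariate. Number-first titles were 7 of 7 in the double mutant, 2 of 7 in Ezh2 loss, 2 of 7 in JAK2V617F and 4 of 5 in control, and what the style stands for is not stated. Ezh2 RNA was at 17.4 ± 9.07 RPKM in the double mutant, 17.6 ± 9.0 in Ezh2 loss, 27.1 ± 8.21 in JAK2V617F and 23.7 ± 10.4 in control (SD), a log2 difference of -0.57 with Ezh2 loss averaged over both JAK2 states (SE 0.28, adjusted p = 0.589, limma). No library was at 0, and the 14 libraries labelled with Ezh2 loss ran from 5.15 to 31.4 RPKM, overlapping the 8.11 to 40.2 RPKM of the other 12. The loss therefore rests on the labels, and whether the RNA carries a deletion was not tested. All 9 HSC markers used passed the filter, with a summed level of 784 to 1245 RPKM in the double mutant, 577 to 1260.2 in Ezh2 loss, 527 to 1105 in JAK2V617F and 465.9 to 1124 in control. Ly6a was the largest part of these sums, with group means of 376 to 581 RPKM. Slamf1 averaged 30.6, 22.2, 40.1 and 49.6 RPKM in the same order, lower in both groups labelled with Ezh2 loss. Kit, at 106, 98.0, 85.4 and 75.8 RPKM, and Ly6a were higher in both. These marker means are given without a test.

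Vwf was low in both groups labelled with Ezh2 loss, with or without JAK2V617F. In the double mutant the lowest, median and highest libraries were at 1.47, 4.30 and 5.26 RPKM (mean 3.77 ± 1.38, SD, n = 7). In Ezh2 loss they were at 2.15, 4.81 and 6.96 RPKM (mean 4.42 ± 1.92, SD, n = 7). In JAK2V617F they were at 6.47, 12.5 and 22.1 RPKM (mean 14.4 ± 5.71, SD, n = 7), and the 5 control libraries were at 9.88, 9.27, 25.7, 9.77 and 5.62 RPKM (mean 12.04 ± 7.81, SD). Every double-mutant library lay below every control and every JAK2V617F library, while in Ezh2 loss 5 of 7 lay below the lowest control library. From low to high the group means ran double mutant, Ezh2 loss, control and JAK2V617F. The neighbours double mutant and Ezh2 loss overlapped, and so did control and JAK2V617F. Over both JAK2 states, 12 of 14 libraries labelled with Ezh2 loss were below the lowest of the other 12. Of all genes tested, 0.388% had double-mutant and control values and 0.801% had double-mutant and JAK2V617F values that did not overlap, in either direction. Reads behind the Vwf values numbered 224 to 4592 per library, and no library was at 0.

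The fitted log2 difference of Vwf with Ezh2 loss, averaged over both JAK2 states, was -1.44 (SE 0.28), the 30th most negative of 12116 genes tested. It was -1.10 (SE 0.45) for Ezh2 loss against control, -1.78 (SE 0.46) for the double mutant against JAK2V617F and -1.38 (SE 0.42) for the double mutant against control. Within number-first titles Vwf ranged over 1.47 to 5.26 RPKM in the 9 libraries labelled with Ezh2 loss and over 9.27 to 25.7 RPKM in the other 6, with no overlap, and 0.0825% of all genes tested did not overlap in that split, in either direction. Within number-last titles the ranges were 2.64 to 6.96 RPKM in the 5 libraries labelled with Ezh2 loss and 5.62 to 22.1 RPKM in the other 6, and these overlapped. These are descriptions of the values that chose the gene. The splits within a title style also differ in JAK2 state. In number-first titles, 7 double-mutant and 2 Ezh2 loss libraries stood against 4 control and 2 JAK2V617F libraries. In number-last titles, 5 Ezh2 loss libraries stood against 5 JAK2V617F libraries and 1 control library. In bulk libraries such as these, fewer cells of a Vwf-expressing type and less Vwf RNA per cell cannot be told apart. Vwf spans chr6:125546774-125686679 on the plus strand of GRCm38.

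Clu encodes clusterin, a secreted chaperone that platelets store in their alpha granules. It was the only other member with every double-mutant library below every control library, as for Vwf. In the double mutant the lowest, median and highest libraries were at 0, 14.1 and 33.5 RPKM (mean 14.4 ± 13.3, SD, n = 7). In Ezh2 loss they were at 0, 21.3 and 42.8 RPKM (mean 22.1 ± 16.1, SD, n = 7). In JAK2V617F they were at 26.6, 46.2 and 82.4 RPKM (mean 50.2 ± 23.1, SD, n = 7), and the 5 control libraries were at 43.0, 44.5, 92.4, 66.9 and 49.0 RPKM (mean 59.2 ± 20.9, SD). All 14 libraries labelled with Ezh2 loss were below the lowest control library, although the highest Ezh2 loss library nearly reached it. Of the JAK2V617F libraries, 3 of 7 were below the lowest control library too. The background is the same 0.388% of all genes for Ezh2 loss against control as for the double mutant against control. No share was computed for the 14 libraries together. Against JAK2V617F the double mutant overlapped, with 5 of 7 libraries below the lowest JAK2V617F library. Clu spans chr14:65968483-65981547 on the plus strand.

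Clu was listed at 0 in 3 libraries, 2 of the double mutant and 1 of Ezh2 loss, and in none of the 12 libraries without that label. A count of 0 there allows up to 0.0962 and 0.0848 RPKM in the double mutant and 0.116 RPKM in Ezh2 loss, taking 3 reads as the limit. Other libraries held up to 3385 Clu reads. Smart-Seq2 reads are amplified copies without molecular identifiers, so such limits cover counting error only.

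The log2 difference of Clu with Ezh2 loss, averaged over both JAK2 states, was -2.17 (SE 0.55, 95% interval -3.30 to -1.04), with adjusted p = 0.155 in limma. It was the 4th most negative difference of 12116 genes and the 39th smallest p, and it did not pass at an adjusted p of 0.05. Its size moved with the constant added to the RPKM before the log, which was 1 here. The difference was -1.59 with 5 added and -2.85 with 0.1 added. Ezh2 loss stood at -2.56 against control (SE 0.89, adjusted p = 0.665, limma) and the double mutant at -2.62 against control (SE 0.82, adjusted p = 0.508, limma). It was -1.78 for the double mutant against JAK2V617F (SE 0.90, adjusted p = 0.63, limma). Within number-first titles Clu averaged 13.6 RPKM in the 9 libraries labelled with Ezh2 loss and 52.3 RPKM in the other 6. The ranges there, 0 to 33.5 and 31.0 to 92.4 RPKM, overlapped. Within number-last titles it averaged 26.7 RPKM in the 5 libraries labelled with Ezh2 loss and 55.6 RPKM in the other 6. These ranges, 4.29 to 42.8 and 26.6 to 82.4 RPKM, overlapped too. As for Vwf, both splits also differ in JAK2 state.

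**Figure D1:**
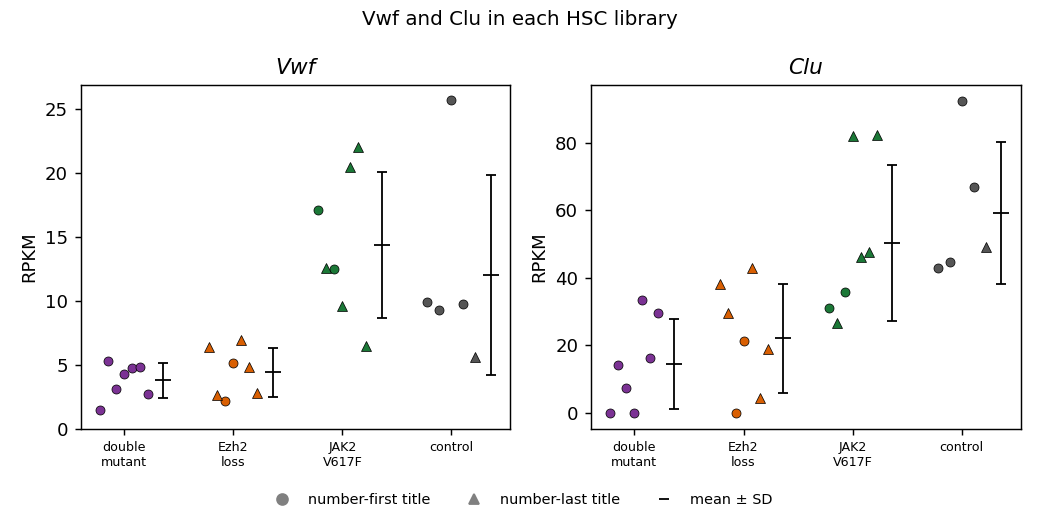
Level of Vwf (left) and Clu (right) in RPKM in each library, by genotype group, with the mean ± SD beside the points; circles are number-first and triangles number-last titles. All 7 double-mutant libraries lie below the 5 control libraries in both panels, while 2 Ezh2 loss libraries reach the control range of Vwf.

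The groups also differed in how many libraries had high neutrophil transcripts, which was not tested. The summed level of 8 neutrophil markers was 43.2 to 52098 RPKM in the double mutant, 404 to 38181 in Ezh2 loss, 72.9 to 17655 in JAK2V617F and 39.5 to 388 in control. It was above the highest control library in 3 of 7 double-mutant, 7 of 7 Ezh2 loss and 1 of 7 JAK2V617F libraries, and Lcn2 and Retnlg were at 0 in every control library. With the mean of 6 neutrophil transcripts as a covariate, the difference with Ezh2 loss was -1.41 for Vwf and -1.69 for Clu (SE 0.64, adjusted p = 0.525, limma). Erythroid markers (9 of 12 in the table) summed to 7.73 to 49.5 RPKM in the double mutant and 37.1 to 6199 in Ezh2 loss. In JAK2V617F they summed to 2.46 to 41.9 RPKM and in control to 25.7 to 37.9. Hba-a1 and Hba-a2 were at 0 throughout. The erythroid marker Beta-s averaged 12.1 RPKM in the double mutant, 1679 in Ezh2 loss, 6.68 in JAK2V617F and 12.2 in control. Within Ezh2 loss it ran from 18.5 to 5786 RPKM. The part of erythroid transcripts in the member values was not tested. Vwf is also expressed by endothelial cells. The 7 endothelial markers summed to 51.2 to 94.6 RPKM in the double mutant, 39.997 to 135 in Ezh2 loss, 30.1 to 68.0 in JAK2V617F and 30.6 to 75.0 in control. Emcn and Pecam1, which were above 0 in every library, carried these sums, with Emcn averaging 54.5 RPKM in the double mutant, 63.5 in Ezh2 loss, 42.997 in JAK2V617F and 49.9 in control. Pecam1 averaged 19.1, 15.8, 10.8 and 12.2 RPKM in the same order. The means of Emcn and Pecam1 were higher in both groups labelled with Ezh2 loss, while those of Kdr and Stab2 were lower. Kdr averaged 0.833, 0.187, 1.48 and 1.10 RPKM, and Stab2 0.230, 0.0257, 0.632 and 0.428 RPKM. Many libraries were at 0, for Kdr 4 of 7, 6 of 7, 2 of 7 and 1 of 5. For Stab2 these were 5 of 7, 5 of 7, 5 of 7 and 3 of 5. The part of endothelial transcripts in the Vwf values was not tested. Only 3 of the 7 passed the filter, the defining marker Cdh5 was at 0 in every double-mutant, JAK2V617F and control library, and Plvap was at 0 in every double-mutant, Ezh2 loss and JAK2V617F library.

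Across the 26 libraries the log2 levels of Vwf and Clu had a Pearson r of 0.63 after the mean of each title style was taken off. This was the highest of all pairs among the 10 members, ahead of 0.50 for Gp1bb and Cd9. Clu stood 6th among 11153 other genes by likeness to Vwf. With the group means taken off as well, r was 0.37 for Clu, below 0.49 for Selp, so Clu was then no longer the member most like Vwf, and Pf4 was at -0.37. The points share their libraries and the group differences given above, so these values describe the libraries and are no test.

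**Figure D2:**
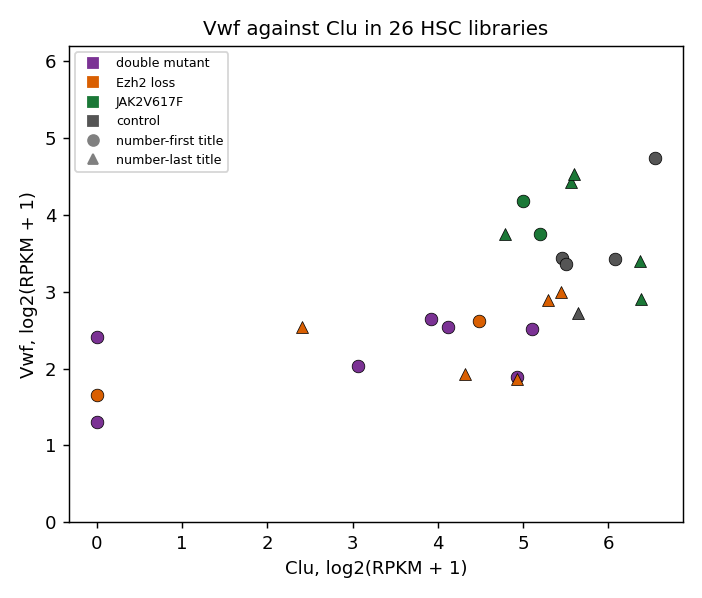
Vwf against Clu, both as log2(RPKM + 1), in the 26 libraries, with colour for the genotype group and shape for the title style. The 3 libraries in which Clu was at 0 are 2 double mutants and 1 Ezh2 loss. The 12 JAK2V617F and control libraries lie towards the right, where 9 of them are above the highest Clu value of the 14 others and the rest overlap these.

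The receptor for von Willebrand factor on platelets is built from GPIb alpha (Gp1ba), GPIb beta (Gp1bb), GPIX (Gp9) and GPV (Gp5). Gp1ba is no member of the 10 but completes the complex. The sequences upstream of 3 of these genes are shown because these genes encode the receptor of von Willebrand factor, yet their RNAs did not have the low values of Vwf in the libraries labelled with Ezh2 loss. The fourth, Gp1bb, is not shown because an exon of Sept5 lies in its window. Each is the 250 bases before the RefSeq start on GRCm38.p6, 5′ to 3′ on the strand of the gene, with GATAA or its reverse complement TTATC (the core bound by GATA factors) and AGGAAG or its reverse complement CTTCCT (a core bound by ETS factors) in capitals. Gp9 is from chr6:87777820-87778069 (plus strand), Gp5 from chr16:30310782-30311031 (minus strand) and Gp1ba from chr11:70638872-70639121 (plus strand).
Gp9: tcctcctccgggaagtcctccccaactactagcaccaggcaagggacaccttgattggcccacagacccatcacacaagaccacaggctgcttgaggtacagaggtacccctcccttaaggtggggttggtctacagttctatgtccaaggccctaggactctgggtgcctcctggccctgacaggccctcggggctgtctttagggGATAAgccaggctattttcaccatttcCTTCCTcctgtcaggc
Gp5: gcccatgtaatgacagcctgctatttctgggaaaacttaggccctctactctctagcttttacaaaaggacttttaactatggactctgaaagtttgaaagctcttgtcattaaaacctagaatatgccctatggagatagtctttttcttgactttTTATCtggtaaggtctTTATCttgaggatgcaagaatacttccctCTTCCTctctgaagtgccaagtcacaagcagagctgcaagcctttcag
Gp1ba: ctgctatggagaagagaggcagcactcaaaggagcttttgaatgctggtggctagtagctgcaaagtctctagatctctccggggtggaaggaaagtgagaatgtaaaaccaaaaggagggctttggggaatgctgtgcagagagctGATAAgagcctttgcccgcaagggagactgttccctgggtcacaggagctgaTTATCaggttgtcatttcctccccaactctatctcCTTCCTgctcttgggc
These 3 hold both motifs, searched on both strands, with no overlap between matches, while the Gp1bb window holds neither, so 3 of the 4 receptor genes have both. GATAA or TTATC occurs in 22.6% and AGGAAG or CTTCCT in 29.5% of 32851 RefSeq promoters of the same length. The share of promoters that hold both was not computed. Entries existed for 7 of the 10 members, of which 2 hold the first motif and 6 the second. Windows that hold exons were kept in these counts, also those of Itga2b and Cd9. A match describes these letters and is not a binding site.

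Gp9 was the most abundant RNA of the receptor and was detected in every library. Its lowest, median and highest libraries were at 76.2, 102 and 148 RPKM in the double mutant (mean 108 ± 29.6, SD, n = 7). They were at 18.4, 65.5 and 120 RPKM in Ezh2 loss (mean 68.0 ± 39.6, SD, n = 7) and at 22.9, 109 and 154 RPKM in JAK2V617F (mean 94.9 ± 45.3, SD, n = 7). The 5 control libraries were at 60.2, 91.5, 135, 147 and 31.6 RPKM (mean 93.0 ± 48.8, SD). All 4 groups overlapped. The log2 difference with Ezh2 loss was -0.12 (SE 0.30, 95% interval -0.72 to 0.49, adjusted p = 0.954, limma), and it turned to 0.02 without Ezh2 loss replicate 7.

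Gp5, the subunit cleaved off by thrombin, was lower in abundance, at 5.33 ± 4.69 RPKM in the double mutant, 9.14 ± 8.23 in Ezh2 loss, 3.85 ± 4.88 in JAK2V617F and 6.69 ± 4.16 in control (SD). Its difference with Ezh2 loss was 0.27 (SE 0.52, 95% interval -0.80 to 1.33, adjusted p = 0.937, limma). Gp1bb averaged 3.93 ± 3.83 RPKM in the double mutant, 5.58 ± 5.05 in Ezh2 loss, 6.22 ± 6.44 in JAK2V617F and 6.07 ± 4.67 in control (SD), a difference of -0.31 (SE 0.58, 95% interval -1.50 to 0.87, adjusted p = 0.931, limma). Its exons overlap those of Sept5 and Gm49601 on the same strand, so reads of these genes may have been split in counting and the Gp1bb values are uncertain. Gp1ba, the subunit that binds von Willebrand factor, was at 3.54 ± 4.58 RPKM in the double mutant, 7.03 ± 4.43 in Ezh2 loss, 3.11 ± 2.77 in JAK2V617F and 6.62 ± 7.64 in control (SD). Its difference with Ezh2 loss was 0.23 (SE 0.51, 95% interval -0.82 to 1.28, adjusted p = 0.948, limma). Gp1bb was at 0 in 6 of 26 libraries and Gp5 in 3, so the low subunits carry the widest intervals.

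Itga2b and Itgb3 encode the 2 chains of integrin alpha IIb beta 3 (CD41 and CD61), the fibrinogen receptor. Itga2b is an early marker of the megakaryocyte lineage. Its lowest, median and highest libraries were at 5.87, 9.04 and 38.2 RPKM in the double mutant, 6.09, 13.5 and 20.0 in Ezh2 loss and 2.61, 10.6 and 20.9 in JAK2V617F, and the 5 control libraries were at 4.69, 15.8, 20.9, 3.78 and 12.9 RPKM. The groups overlapped, and 2 double-mutant libraries were above the highest control library. The difference of Itga2b with Ezh2 loss was 0.28 (SE 0.36, 95% interval -0.46 to 1.02, adjusted p = 0.899, limma).

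Itgb3 averaged 1.83 ± 0.464 RPKM in the double mutant, 4.61 ± 5.23 in Ezh2 loss, 4.10 ± 2.78 in JAK2V617F and 3.36 ± 1.97 in control (SD). The medians were 1.92, 1.69, 3.47 and 2.31 RPKM in the same order, lower in both groups labelled with Ezh2 loss. In Ezh2 loss the libraries ran from 0 to 13.6 RPKM, so the mean there rests on the high libraries. The double-mutant libraries lay close together, between 1.02 and 2.30 RPKM, within the spread of the other groups. Its difference with Ezh2 loss was -0.45 (SE 0.40, 95% interval -1.27 to 0.36, adjusted p = 0.816, limma). The difference was -1.09 for the double mutant against JAK2V617F (SE 0.65, adjusted p = 0.722, limma) while Ezh2 loss stood at 0.19 against control (SE 0.64, adjusted p = 0.987, limma).

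Selp encodes P-selectin, the adhesion receptor that moves from granules to the surface of activated platelets and is also made by endothelium. It averaged 17.9 ± 9.10 RPKM in the double mutant, 14.6 ± 10.7 in Ezh2 loss, 13.1 ± 8.12 in JAK2V617F and 18.4 ± 17.2 in control (SD). The control libraries alone ran from 0 to 42.9 RPKM and enclosed all the others. The difference with Ezh2 loss was 0.24 (SE 0.43, 95% interval -0.65 to 1.14, adjusted p = 0.929, limma). It turned to -0.54 in number-first libraries alone and to -0.03 without control replicate 5, where Selp was at 0. Selp exons overlap 2 RNAs of the opposite strand, and whether the counting used strand is not stated.

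Pf4 encodes platelet factor 4, a chemokine of the alpha granules that HSCs also carry as RNA. Its lowest, median and highest libraries were at 72.7, 90.5 and 358 RPKM in the double mutant, 63.5, 138 and 665 in Ezh2 loss and 45.1, 145 and 246 in JAK2V617F, and the 5 control libraries were at 284, 79.1, 110, 172 and 65.1 RPKM. The highest values were 2 Ezh2 loss libraries and 1 double-mutant library above the control range, while the group medians ran from 90.5 to 145 RPKM. The difference with Ezh2 loss was 0.16 (SE 0.37, 95% interval -0.59 to 0.91, adjusted p = 0.949, limma). It turned to -0.39 in number-first libraries alone, to -0.22 with neutrophil transcripts as a covariate and to -0.03 without Ezh2 loss replicate 7.

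Cd9, a tetraspanin of the platelet and stem cell surface, was the most abundant of the 10 and had the smallest SE. It averaged 296 ± 79.6 RPKM in the double mutant, 343 ± 97.8 in Ezh2 loss, 403 ± 70.2 in JAK2V617F and 307 ± 84.7 in control (SD). Its difference with Ezh2 loss was -0.13 (SE 0.14, 95% interval -0.42 to 0.16, adjusted p = 0.867, limma). Cd9 lies next to Vwf on chromosome 6, on the opposite strand and 52.0 kb away, and across libraries its r with Vwf was 0.01. Its exons overlap an RNA of the opposite strand.

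**Figure D3:**
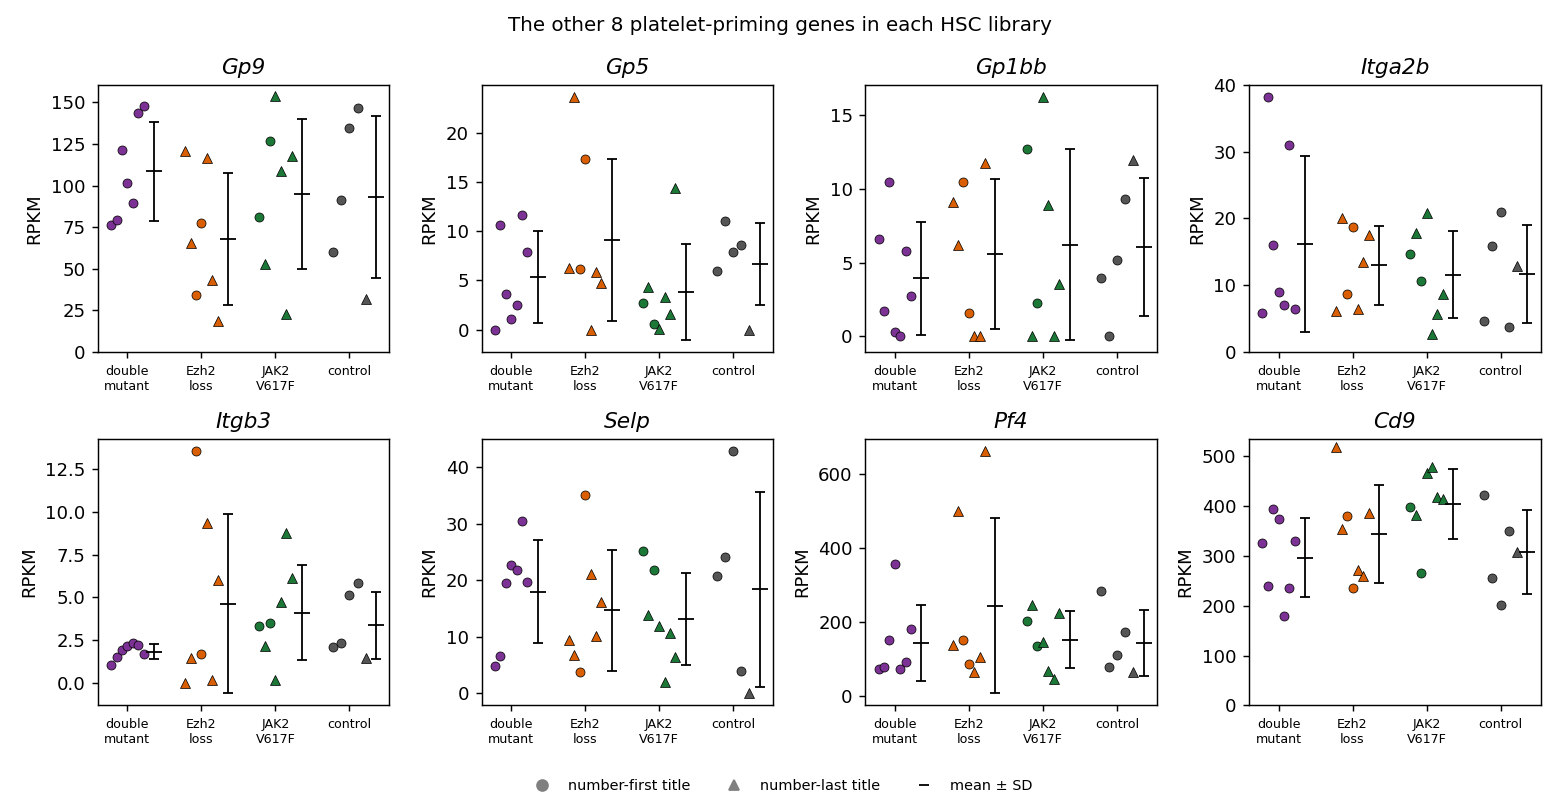
Level in RPKM of the other 8 members in each library, by genotype group, with the mean ± SD beside the points; circles are number-first and triangles number-last titles, and SD bars below 0 only reflect wide spread. The groups overlap in every panel, in contrast to the double mutant and control values of Vwf and Clu.

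Among the 9 members other than Vwf, 0 passed with Ezh2 loss averaged over both JAK2 states, where 0.0578% of all genes tested passed in limma (7 genes). At an unadjusted p under 0.05 there was 1 of 9, Clu, against 8.66% of all genes. Of the 9, 4 had higher and 5 lower fitted values, with a median of -0.12, beside -0.01 over all genes tested. For 6 of the 9 (Gp9, Gp5, Itga2b, Selp, Pf4 and Cd9) the whole 95% interval lay above a log2 difference of -1, and for 3 (Gp9, Pf4 and Cd9) it also lay below 1. For Gp1bb and Itgb3 the interval still included a difference of -1. A p that misses the threshold does not show that a gene was equal in both states.

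The counts were also 0 of 9 in each simple comparison by limma. For Ezh2 loss against control, 0% of all genes passed, 1 member (Clu) had an unadjusted p under 0.05, against 6.07% of all genes, and the member median was 0.19. For the double mutant against JAK2V617F, 0.033% of all genes passed, no member had an unadjusted p under 0.05, against 8.06% of all genes, and the median was -0.29. For the double mutant against control, 0.00825% of all genes passed, 1 member (Clu) had an unadjusted p under 0.05, against 6.17% of all genes, and the median was -0.05. The comparisons against control share the 5 control libraries.

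**Figure D4:**
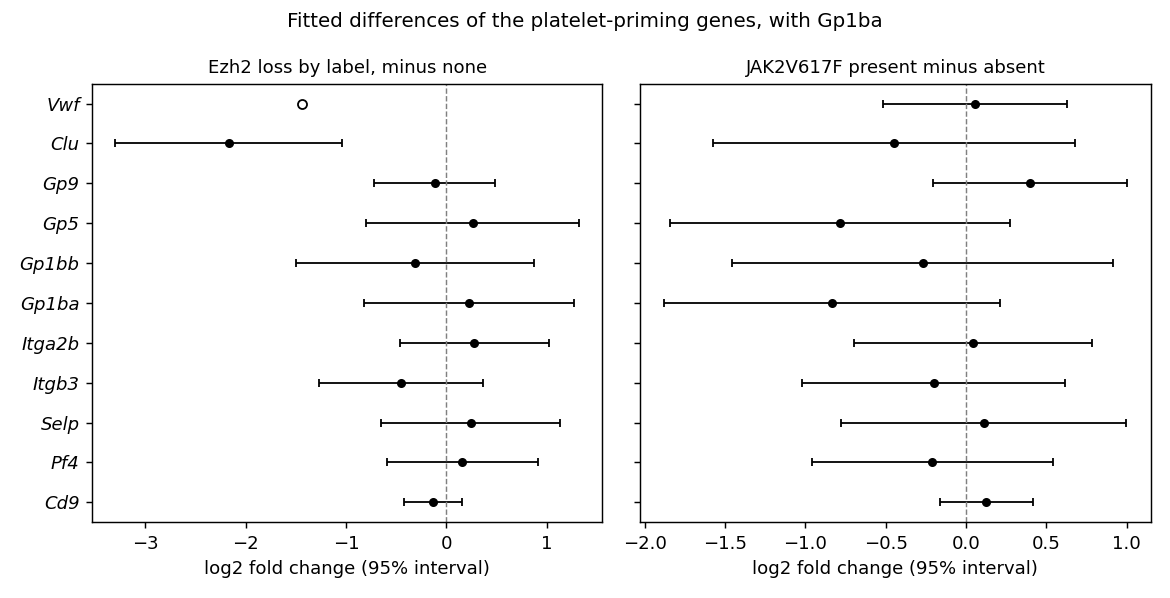
Fitted log2 fold change of each gene with Ezh2 loss averaged over both JAK2 states (left) and with JAK2V617F averaged over both Ezh2 states (right); bars are 95% intervals, and Vwf on the left, an open circle without interval, is the value that chose it. Clu at -2.17 is the one interval among the other members on the left that excludes 0, and its adjusted p was 0.155.

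With JAK2V617F, averaged over both Ezh2 states, 0 of 10 members passed in limma, where 0% of all genes passed. At an unadjusted p under 0.05 there were 0 of 10, against 5.63% of all genes. Vwf differed by 0.06 (SE 0.28, adjusted p = 0.998, limma), with a 95% interval of -0.52 to 0.63. The most negative value was that of Gp5 at -0.78 (SE 0.52, adjusted p = 0.919, limma), beside -0.84 for its partner Gp1ba (SE 0.51, adjusted p = 0.919, limma). Gp9 was at 0.40 (SE 0.30, adjusted p = 0.929, limma). For JAK2V617F against control, 0 of 10 members passed and 0% of all genes, and 0 of 10 had an unadjusted p under 0.05, against 4.14% of all genes. The JAK2V617F and control values overlapped for all 10 members, while 0.264% of all genes had values that did not. Vwf was at 0.40 there (SE 0.45, adjusted p = 0.999, limma).

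The interaction asks whether the difference with Ezh2 loss depended on JAK2V617F. It had 0 of 10 members passing in limma, beside 0% of all genes, and 0 of 10 members at an unadjusted p under 0.05, against 6.09% of all genes. Its value was -0.68 for Vwf (SE 0.72, adjusted p = 0.923, limma) and 0.78 for Clu (SE 1.41, adjusted p = 0.961, limma). The largest in size among the members was -1.69 for Selp (SE 1.11, adjusted p = 0.866, limma).

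Between the title styles 0 of 10 members passed in limma, where 11% of all genes passed. Selp, at 1.52 for number-first over number-last titles (SE 0.57, adjusted p = 0.0868, limma), was the 1 member with an unadjusted p under 0.05, against 23.4% of all genes. Vwf was at 0.17 (SE 0.37, adjusted p = 0.843, limma) and Clu at -1.07 (SE 0.72, adjusted p = 0.398, limma). The double mutant had number-first titles only, so its difference from the other groups within number-last titles cannot be had.

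The wider platelet and megakaryocyte programme was read from a list of 47 effector symbols (granule, cytoskeleton, receptor and signalling proteins of platelets, Gp1ba included), of which 45 were in the table and 39 were tested. With Ezh2 loss averaged over both JAK2 states 0 of 39 passed in limma, with 21 higher and 18 lower values and a median of 0.09. At an unadjusted p under 0.05 there were 3 higher and 5 lower of 39, against 8.66% of all genes. Tubb1, the platelet beta-1 tubulin, was on the higher side, at 3.71 ± 3.03 RPKM in the double mutant, 4.06 ± 3.84 in Ezh2 loss, 0.249 ± 0.66 in JAK2V617F and 0.769 ± 1.72 in control (SD). It was at 0 in 2 of 7 double-mutant, 1 of 7 Ezh2 loss, 6 of 7 JAK2V617F and 4 of 5 control libraries, and its difference was 1.52 (SE 0.42, adjusted p = 0.209, limma). Cd63, a granule tetraspanin, was at -0.32 (SE 0.08, adjusted p = 0.142, limma), Fyb, an adaptor of integrin signalling, at -1.01 (SE 0.34, adjusted p = 0.363, limma) and Sdpr, a caveolar protein, at -0.93 (SE 0.37, adjusted p = 0.456, limma). The values of these 4 effectors thus lay on both sides of 0.

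The summed level of 6 mature platelet markers that are no members, Tubb1 among them, was 17.4 to 39.98 RPKM in the double mutant, 8.35 to 59.5 in Ezh2 loss, 6.09 to 91.7 in JAK2V617F and 0.699 to 31.6 in control. The median sums were 24.4, 36.6, 19.5 and 15.1 RPKM in the same order. They were higher in both groups labelled with Ezh2 loss, while the ranges overlapped. Gp6, the platelet collagen receptor, was at 0 in every library. The part of these transcripts in the member values was not tested.

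All 20 transcription factors of the megakaryocyte lineage were tested, and with Ezh2 loss 0 of 20 passed in limma, with 11 higher and 9 lower values and a median of 0.02. At an unadjusted p under 0.05 there were 2 higher and 0 lower of 20, against 8.66% of all genes. Lyl1, a helix-loop-helix factor of HSCs, was at 0.68 (SE 0.20, adjusted p = 0.276, limma), with means of 209 ± 91.0 RPKM in the double mutant, 135 ± 39.1 in Ezh2 loss, 86.5 ± 30.8 in JAK2V617F and 123 ± 28.0 in control (SD). Gfi1b, a repressor needed for platelet formation, was at 0.30 (SE 0.13, adjusted p = 0.522, limma). Ikzf1 was at 0.41 (SE 0.24, adjusted p = 0.687, limma) and Ets1 at 0.47 (SE 0.35, adjusted p = 0.762, limma). With JAK2V617F averaged over both Ezh2 states, 0 of 39 effectors passed (16 higher, 23 lower, 3 at an unadjusted p under 0.05) and 0 of 20 factors passed (2 higher, 18 lower, 0 at an unadjusted p under 0.05), by limma. Of all genes tested, 0% passed, 5.63% had an unadjusted p under 0.05 and 50.9% were lower. The median was -0.099 for the effectors and -0.10 for the factors, beside -0.006 over all genes tested. The split of the factors into higher and lower was not tested.

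The genes most like Vwf across the 26 libraries, by Pearson r of log2 levels with title-style means taken off, were Esr1 (0.86), Spata24 (0.69), Gar1 (0.68), Zfp706 (0.68) and Usp36 (0.68). Esr1, which encodes oestrogen receptor alpha, was at 0.265 ± 0.185 RPKM in the double mutant, 2.14 ± 2.49 in Ezh2 loss, 21.2 ± 8.59 in JAK2V617F and 6.71 ± 9.25 in control (SD). Spata24 was at 11.2 ± 5.82 RPKM in the double mutant, 15.8 ± 7.999 in Ezh2 loss, 44.6 ± 22.2 in JAK2V617F and 20.8 ± 15.0 in control (SD). Both had their highest mean in JAK2V617F, as Vwf did. Of the 8 members other than Vwf and Clu, r with Vwf lay between -0.27 for Pf4 and 0.24 for Itgb3.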

How the data were processed

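RNA of sorted mouse HSCs was measured in 26 Smart-Seq2 libraries. The authors deposited 1 table of RPKM for 23416 genes, and STAR 2.4.2a, SAMtools 0.1.19 and Subread 1.5.0 with mm10/GRCm38 are named per the submitters' processing notes. Their settings, annotation and strandedness are not stated in the sources used here. The 10 members, the lists and the tests were chosen with earlier results of these data known.

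Groups came from the genotype label. The 12116 genes that reached an RPKM of 1 in 5 or more libraries were fitted with limma 3.58.1 in R 4.3.3 on log2(RPKM + 1), with 4 group means and title style over all 26 libraries and moderated variances (trend, robust). Tests were two-sided, adjusted by Benjamini-Hochberg over all tested genes, and passed at an adjusted p under 0.05. Fold changes are on the log2(RPKM + 1) scale, which understates those of low genes. The averaged Ezh2 and JAK2V617F differences are means of the 2 simple contrasts. The fitting step was tested on simulated data.

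Whole reads and library totals were recovered from the RPKM steps and gene lengths, within a tolerance of 0.001 reads for the members and Gp1ba. No count test was run, since the deposited unit is RPKM. Reads were not aligned again. Coordinates are those of GENCODE on GRCm38, and promoters are from RefSeq on GRCm38.p6.

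Named genes are the members, Gp1ba and Ezh2, the 4 tested genes with the smallest p in the averaged Ezh2 difference from each of the effector and transcription factor lists where none passed, and the 5 genes most like Vwf, passing over predicted genes and pseudogenes. Another gene of this rule and of the lists is not reported here. Alternatives were pseudocounts of 0.1 and 5, no filter, median-ratio and quantile scaling, array weights, title style left out, number-first libraries alone, a neutrophil covariate and each library left out in turn.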

Additional observations from a re-analysis of the deposited data

Results flagged for a closer look

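Within groups of 5 or 7 libraries, 2 of 40 member and group combinations had a library far from the others by Dixon's test, where chance alone flags about 1 in 20 groups (5%). Gp5 was at 0 RPKM in control replicate 5, while the nearest control library was at 5.95 RPKM. A count of 0 in that library allows up to 0.112 RPKM. Cd9 was at 265 RPKM in JAK2V617F replicate 3, while the nearest JAK2V617F library was at 382 RPKM.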

How the results depend on the processing

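The difference of Vwf with Ezh2 loss kept its direction in all other processing settings run, from -0.96 (pseudocount 5) to -1.69 (number-first libraries). That of Clu kept its direction too, from -1.59 (pseudocount 5) to -2.87 (number-first libraries). The adjusted p of Clu was 0.0624 to 0.552 in limma, and it passed in none of them. Leaving out each library in turn gave -1.52 to -1.28 for Vwf and -2.34 to -1.92 for Clu. Vwf was chosen by these same values, so its kept direction is a description and no support. The causes of the changes below were not tested. Counts of genes called moved with title style left out to 274 (double mutant against JAK2V617F), 1 (JAK2V617F against control), 0 (double mutant against control) and 215 (interaction). In number-first libraries alone they were 0 for averaged Ezh2 loss, 0 for the double mutant against JAK2V617F and 0 against control, with fewer samples. A pseudocount of 0.1 gave 1 for JAK2V617F against control. No filter gave 2 for the double mutant against control and 1 for the interaction, and quantile scaling gave 2 for the double mutant against control. Array weights gave 12 for the double mutant against JAK2V617F, 6 against control and 1 member for title style. The neutrophil covariate gave 2 for averaged Ezh2 loss and 0 for the double mutant against control. Directions turned for Pf4 (-0.39) and Selp (-0.54) with Ezh2 loss and for Pf4 (0.14) and Gp1bb (0.028) with JAK2V617F in number-first libraries, for Pf4 (-0.22) with Ezh2 loss under the neutrophil covariate, for Selp with JAK2V617F at pseudocount 5 (-0.0084), and for Itga2b (-0.014) and Selp (-0.068) with JAK2V617F under array weights. Leaving out each library in turn gave 3 (without control replicate 3) to 13 genes (without Ezh2 loss replicate 6) for averaged Ezh2 loss, 0 to 1 for averaged JAK2V617F, 0 to 1 for Ezh2 loss against control, 3 to 8 for the double mutant against JAK2V617F, 0 to 1 for JAK2V617F against control, 0 (without control replicate 3, 4 or 5 or double mutant replicate 4, 6 or 7) to 6 (without double mutant replicate 1) for the double mutant against control, 0 to 1 for the interaction and 0 to 1 members for title style (1 without Ezh2 loss replicate 3). It gave -0.029 to 0.32 for Pf4, -0.025 to 0.48 for Selp and -0.24 to 0.022 for Gp9 with Ezh2 loss, and -0.048 to 0.21 for Vwf, -0.11 to 0.19 for Itga2b and -0.21 to 0.35 for Selp with JAK2V617F. No paired analysis was possible because the replicate numbers are only accession order and link no libraries across groups. Libraries at 0 reads numbered 6 for Gp1bb, 3 for Gp5, 3 for Clu, 1 for Itgb3 and 1 for Selp, and there the depth gives only an upper limit.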
